A study of Drosophila melanogaster with 2 samples.

Results

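The genes described here encode the subunits of RNA polymerases I, II and III, taken as every gene of the deposited table whose FlyBase symbol starts with Polr1, Polr2 or Polr3. The rule found 30 genes among the 17807 of the table. Of these, 5 encode subunits found in Pol I alone, 8 belong to Pol II, 10 to Pol III, 2 are shared by Pol I and Pol III, and 5 are common to all 3 enzymes, as known from yeast and mammals. The data are RNA-seq of Kc167 cells, an embryonic Drosophila melanogaster line that resembles blood cells, grown at 25 °C and exposed to 2% DMSO for 1 h as the vehicle control of a transcription-inhibitor study. There are 2 libraries, replicates 1 and 2 of this single condition, with no treated group among them. Whether they came from separate cultures is not stated, so the spread between them may be technical. Levels are therefore compared between genes within each library, without a p-value, because genes are not replicates.

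In eukaryotes, Pol I makes the ribosomal RNA precursor in the nucleolus, Pol II makes mRNA and many noncoding RNAs, and Pol III makes tRNA and other short RNAs. The enzymes share a common architecture. The pair of largest subunits forms the catalytic cleft, a pair of smaller subunits forms the platform on which these assemble, and a stalk leaves the body near the RNA exit. Pol I and Pol III also carry permanently bound subunits that resemble the Pol II initiation factors TFIIE and TFIIF. Within one enzyme, the core subunits are present in equal numbers, whereas their mRNAs need not be.

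Replicate 1 held 33436865 read pairs counted on genes and replicate 2 held 31721648. Of the blood cell markers of the plasmatocyte list, 8 of 8 had at least 10 counts in each library, against 49.7% of all genes. Their median was 41.5 deposited TPM, although NimC1, Pxn and eater were low, at 1.76, 4.18 and 5.41 deposited TPM. NimC1 and eater, which encode phagocytic receptors, had 139 and 129 counts and 187 and 195 counts, and Pxn had 1086 and 963. The neuronal, muscle, fat body and testis lists had medians between 0.0247 and 0.0638 deposited TPM. In these lists, 3, 2, 0 and 1 of 4 genes each had at least 10 counts in each library. The testis gene ocn had 4.87 deposited TPM. The neuronal gene elav had 275 and 278 counts and 1.45 deposited TPM, slightly below NimC1. In the muscle list, Mlc2 stood apart with 822 and 779 counts, while Mhc had 25 and 24. Mlc2 had 32.7 deposited TPM, which is above NimC1, Pxn and eater and below the plasmatocyte median. Levels are given in TPM, in which each count is first corrected for the length of its gene and all genes of a library then add up to the same total. The length in the deposited table counts an exon once for each annotated transcript that contains it, so TPM was also calculated with each exonic base counted once. This rescaling multiplied the level of every gene with an unchanged length by 0.638.

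Polymerase subunit genes were well expressed. At least 10 counts in each library were reached by 28 of the 30 genes, against 49.7% of all genes in the table. The same 28 genes had between 401 and 9089 counts in each library. Their median deposited TPM was 88.3, against 32.7 over the 8263 counted protein-coding genes, and 26 of them lay above that general median in both libraries. The exceptions were Polr3C and Polr3F, which encode TFIIE-like subunits of Pol III. Deposited TPM above 81.4, the upper quartile of counted protein-coding genes, was reached in both libraries by 16 of the 30, against 24.5% of counted protein-coding genes. With each exonic base counted once, the medians were 66.0 TPM for the counted subunits and 37.8 TPM for protein-coding genes. With that length, Polr3I also lay below the general median, at a mean of 36.8 TPM. Mean levels of Polr1C, Polr1E, Polr2A, Polr2G, Polr3A and Polr3D then lay below the upper quartile, at percentiles from 63.3 (Polr1C) to 73.8 (Polr1E). Polr2I rose above it, to percentile 77.0. The count of 16 thus applies to the deposited length. All 30 genes together took 1900 CPM in replicate 1 and 1918 CPM in replicate 2, where CPM is the share of all counts on genes, scaled like TPM but without a gene length.

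**Figure D1:**
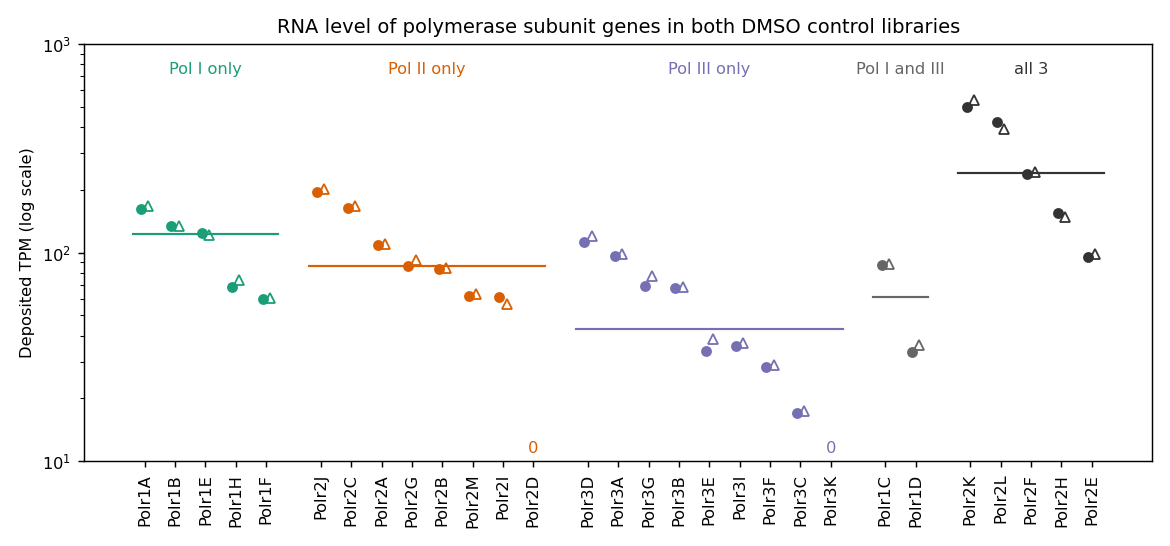
Deposited TPM (log scale) of polymerase subunit genes, grouped by the enzyme that holds the subunit, with replicate 1 as filled circles, replicate 2 as open triangles and a line at the median of the group, genes at 0 included. Levels ran from 17.2 TPM at Polr3C to 517 TPM at Polr2K, and Polr2D and Polr3K, marked 0, had no counts.

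Subunits specific to Pol III had the lowest median RNA level of the 3 enzymes. Their median deposited TPM was 41.6 in replicate 1 and 44.0 in replicate 2, a mean of 42.8 ± 1.67 (SD, n = 2). The median was 86.5 ± 2.56 TPM (SD, n = 2) for Pol II subunits and 123 ± 1.71 TPM (SD, n = 2) for Pol I subunits. These medians enter Polr2D and Polr3K at 0, although neither could be measured, as described further on. Leaving both out gave 89.0 ± 3.97 TPM (SD, n = 2) for Pol II and 48.4 ± 1.34 TPM (SD, n = 2) for Pol III. With the genes at 0 included, the median of Pol I subunits was 2.88 ± 0.153 times that of Pol III subunits (SD, n = 2), and the median of Pol II subunits was 2.02 ± 0.0192 times (SD, n = 2). Without them, the ratios were 2.54 ± 0.106 and 1.84 ± 0.0310 (SD, n = 2). Single genes overlapped between the enzymes: 3 of the 5 Pol I genes lay above the highest Pol III gene, Polr3D, and 5 of the 9 counted Pol III genes lay below the lowest Pol I gene, Polr1F. With each exonic base counted once, 3 of the 9 did. Among genes that share no exonic base with another gene, only 3 for Pol I, 3 for Pol II and 7 for Pol III, the median of Pol III was 67.8 ± 0.645 TPM (SD, n = 2), and the Pol II median was 1.24 ± 0.00514 times as high (SD, n = 2).

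The order of Pol I and Pol II depended on the gene length. The Pol II median was 0.702 ± 0.0305 times the Pol I median with the deposited length (SD, n = 2) and 1.00 ± 0.0102 times with each exonic base counted once (SD, n = 2). Leaving out the genes at 0 as well gave 1.12 ± 0.0414 (SD, n = 2). The subunits of Pol III stayed lowest, with a median of 44.4 ± 2.04 TPM (SD, n = 2) against 78.6 ± 1.47 for Pol I (SD, n = 2) and 78.9 ± 2.28 for Pol II (SD, n = 2). The distance was smaller, however, at 1.78 ± 0.115 for Pol I over Pol III (SD, n = 2). Genes with several transcripts are spread unevenly over the enzymes: none of the 5 Pol I genes has more than 1 annotated transcript, compared with 2 of the 8 Pol II genes, 5 of the 10 Pol III genes, Polr1D and Polr2E. In all, 9 of the 30 genes have more than 1 transcript, against 60.1% of counted protein-coding genes. For these 9 genes, the deposited length was between 1.59 times the exonic length, at Polr3I, and 2.35 times, at Polr2I.

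**Figure D2:**
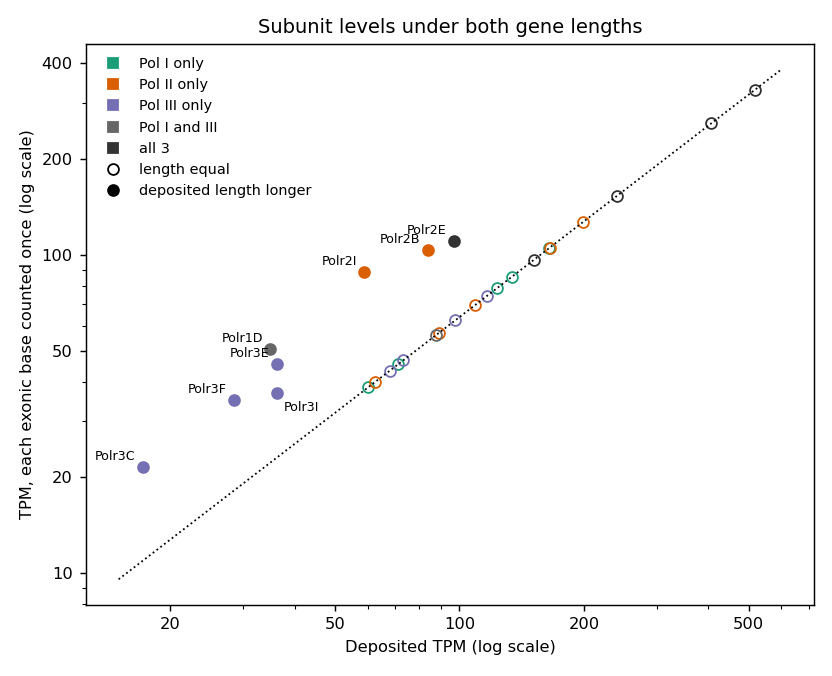
Mean TPM of counted subunit genes with the deposited gene length (x axis, log scale) and with each exonic base counted once (y axis, log scale), coloured by enzyme. Open circles are genes whose length stayed equal, which lie on the dotted line of the common rescaling by 0.638, and filled circles are genes whose deposited length was longer, such as Polr2I at 2.35 times the exonic length, and lie above that line.

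The largest subunits can be compared without this difficulty, since Polr1A, Polr2A and Polr3A each have a single annotated transcript. Polr1A had 162 and 168 deposited TPM in replicates 1 and 2. Polr2A, which carries the repetitive carboxy-terminal domain that is phosphorylated during transcription, had 108 and 110 TPM. Polr3A had 96.7 and 98.8 TPM. The values of the libraries did not overlap between the genes: Polr1A was 1.51 ± 0.0250 times as high as Polr2A (SD, n = 2) and 1.69 ± 0.0183 times as high as Polr3A (SD, n = 2), and Polr2A was 1.12 ± 0.00639 times as high as Polr3A (SD, n = 2). In BDGP6.54, both Polr2A (minus strand, 11562800 to 11570326) and Polr3A (plus strand, 15762956 to 15769514) are on chromosome X.

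The second largest subunit, which closes the cleft opposite the largest, followed the same order only with the deposited length. Polr1B had 133.9 TPM in both libraries, Polr2B had 83.1 and 84.7 TPM, and Polr3B had 67.4 and 68.3 TPM. With each exonic base counted once, Polr2B, which has 2 annotated transcripts, was the highest at 103 ± 0.909 TPM (SD, n = 2), above Polr1B at 85.4 ± 0.372 (SD, n = 2) and Polr3B at 43.3 ± 0.201 (SD, n = 2). Polr1B was thus 1.60 ± 0.0210 times Polr2B with one length (SD, n = 2) and 0.827 ± 0.0109 times with the other (SD, n = 2). Polr3B was the lowest of these genes with both lengths. Within Pol II, Polr2A was 1.30 ± 0.00506 times Polr2B with the deposited length (SD, n = 2) and 0.674 ± 0.00262 times with each exonic base counted once (SD, n = 2).

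The platform of Pol II is a pair formed by Polr2C and Polr2J, counterparts of yeast Rpb3 and Rpb11, and Pol I and Pol III share a different pair, Polr1C and Polr1D. The Pol II pair was higher. Polr2C had 164 and 167 deposited TPM against 86.9 and 88.3 TPM for Polr1C, so that Polr1C was 0.530 ± 0.000188 times Polr2C (SD, n = 2). Polr2J had 196 and 202 TPM against 33.5 and 36.2 TPM for Polr1D, a gene with 3 transcripts. The ratio of Polr1D to Polr2J was 0.175 ± 0.00577 (SD, n = 2), or 0.397 ± 0.0131 with each exonic base counted once (SD, n = 2). The pair of Pol I and Pol III was also more even with that length, since Polr1C was 2.51 ± 0.112 times Polr1D with the deposited length (SD, n = 2) and 1.11 ± 0.0493 times with each exonic base counted once (SD, n = 2), while the Pol II pair, Polr2C over Polr2J, stayed at 0.829 ± 0.00985 (SD, n = 2). Although the Polr1C and Polr1D proteins are needed in both Pol I and Pol III, their mRNAs were lower than those of the pair that serves Pol II alone.

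**Figure D3:**
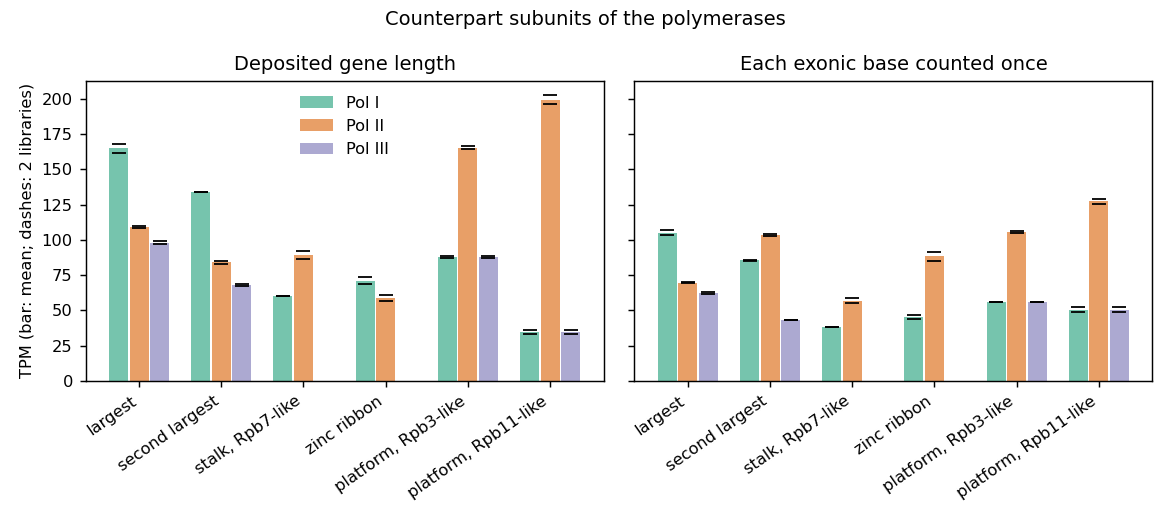
TPM of the subunits at matching positions of Pol I, Pol II and Pol III, with the deposited gene length on the left and each exonic base counted once on the right. Bars are means and dashes the 2 libraries; Polr1C and Polr1D are drawn for both Pol I and Pol III, and not every Pol III subunit is drawn. Polr1A leads the largest subunits in both panels at 1.51 times Polr2A, whereas Polr1B leads the second largest subunits on the left and Polr2B on the right.

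Among the stalk subunits that correspond to yeast Rpb7, Polr1F of Pol I had 60.0 and 60.3 deposited TPM and Polr2G of Pol II had 86.2 and 91.8 TPM. Polr1F was 0.676 ± 0.0282 times Polr2G (SD, n = 2) with both lengths, since each has a single annotated transcript. The Rpb4-like stalk subunits are Polr2D in Pol II, which had no counts, and Polr3I in Pol III, with 35.7 and 36.7 deposited TPM. Of the zinc ribbon subunits, which in yeast take part in RNA cleavage and fidelity, Polr3K of Pol III had no counts, and the other two were Polr1H at 68.4 and 73.7 TPM and Polr2I at 61.0 and 56.8 TPM. Polr1H was 1.21 ± 0.125 times Polr2I with the deposited length (SD, n = 2) and 0.515 ± 0.0532 times with each exonic base counted once (SD, n = 2). Polr2I has 3 annotated transcripts.

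The remaining subunits specific to an enzyme have no counterpart in the core of Pol II. Polr1E, the TFIIF-like subunit of Pol I, had 124 and 122 deposited TPM. In Pol III, the TFIIF-like pair was uneven, with 113 and 121 TPM for Polr3D and 33.9 and 38.6 TPM for Polr3E, a ratio of 3.23 ± 0.139 (SD, n = 2), or 1.64 ± 0.0708 with each exonic base counted once (SD, n = 2). The 3 subunits of the TFIIE-like module, which in yeast and human acts in the opening of Pol III promoters, included the lowest levels of all. Polr3C had a mean of 17.2 ± 0.233 TPM (SD, n = 2), Polr3F had 28.2 and 28.9, and Polr3G had 69.3 and 77.1. Polr3C remained the lowest of the 28 counted genes with both lengths, and Polr3G was 4.26 ± 0.265 times as high (SD, n = 2), or 2.17 ± 0.135 times with each exonic base counted once (SD, n = 2). Polr2M, the counterpart of mammalian Gdown1, binds Pol II without being a core subunit and had 61.9 and 63.0 TPM.

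The 5 subunits common to all enzymes had the highest median deposited TPM of the groups, at 240 ± 2.77 (SD, n = 2). Polr2K, the counterpart of yeast Rpb12, had 498 and 537 TPM and was the highest of all subunit genes. It was followed by Polr2L, the counterpart of Rpb10, with 420 and 392 TPM, and by Polr2F, the counterpart of Rpb6, with 238 and 242 TPM. Polr2H had 155 and 148 TPM, at rank 7 of the 28 counted genes, and Polr2E had a mean of 96.8 ± 2.59 TPM (SD, n = 2), at rank 13. Polr2K, Polr2L and Polr2F kept ranks 1 to 3 with each exonic base counted once, at 330 ± 15.9, 259 ± 14.2 and 153 ± 1.02 TPM (SD, n = 2), and all 5 lay above the upper quartile of protein-coding genes in deposited TPM. They are short genes: Polr2K has 353 exonic bases and Polr2L has 405. In CPM, which does not divide by length, Polr2K had 60.1 and Polr2L 54.1, below Polr1A at 275 and Polr2A at 242. Across the 28 counted genes, deposited TPM and gene length had a Spearman correlation of -0.404, or -0.323 with exonic lengths, a description in which both quantities contain the length.

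The levels were close between the libraries. The SD over the libraries had a median of 2.05% of the mean over the 28 genes and was at most 9.04%, at Polr3E. The order of the genes by deposited TPM had a Spearman correlation of 0.998 between the libraries, and the values of the libraries overlapped for 7 of the 27 pairs of neighbours in that order. Counts of 4 genes differed between the libraries beyond counting error, taken as an exact 95% Clopper-Pearson interval of the share of a gene's counts in replicate 1 that excludes the share of 51.3% given by the totals. This is 4 of 28, against 9.87% of the counted genes. The shares are not matched for depth: the subunits had at least 401 counts in each library, whereas counted genes start at 10. At low counts the interval is wide and seldom excludes the share of the totals. Polr2I had 1640 and 1431 counts, and Polr2L had 1884 and 1646, so both were relatively higher in replicate 1. Polr2K had 1945 and 1966 counts and Polr3E had 1234 and 1315, both relatively higher in replicate 2. Scaling the libraries with edgeR's TMM or DESeq2's size factors left 3 of the 4, without Polr2K. The largest of these differences, at Polr3E, was a log2 ratio of -0.17 for replicate 1 over replicate 2. These intervals cover counting error only and compare 2 libraries, not conditions.

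Polr2D and Polr3K were listed at 0 in both libraries, with strand-matched as well as unstranded counts, and with the annotation used here these zeros are no measure of their RNA. The exons are those of the Ensembl annotation. The deposited lengths of both genes, 722 and 1245 bases, equal the lengths in that annotation, but the gene models used for the counting were not compared beyond length. Polr2D, the stalk subunit that corresponds to yeast Rpb4, occupies positions 18252843 to 18255487 of the minus strand of chromosome 3R, between the same bounds as Ada2a, which encodes a subunit of histone acetyltransferase complexes. All 722 exonic bases of Polr2D are also exonic bases of Ada2a on the same strand. Polr3K, the zinc ribbon subunit of Pol III, lies on chromosome 2R and shares all of its 1245 exonic bases with Tcs1, which was itself at 0. Read pairs that overlap exons of more than 1 gene were counted on none, so with these exons no read pair can be counted on a gene of this kind. Of the 13883 annotated protein-coding genes, 319 (2.3%) share every exonic base with another gene on the same strand, and 319 of these had 0 counts in both libraries. Among the subunits, 2 of 30 are of this kind, and no other subunit gene shares an exonic base on its own strand, against 7.67% of annotated protein-coding genes that share any. At Ada2a, 1723 of 2445 exonic bases are not shared, and these gave 836 and 887 counts and a deposited TPM of 6.87 ± 0.600 (SD, n = 2). That TPM uses the deposited length, which includes the shared exons and counts an exon once for each annotated transcript. The level of Ada2a with each exonic base counted once is not given here.

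**Figure D4:**
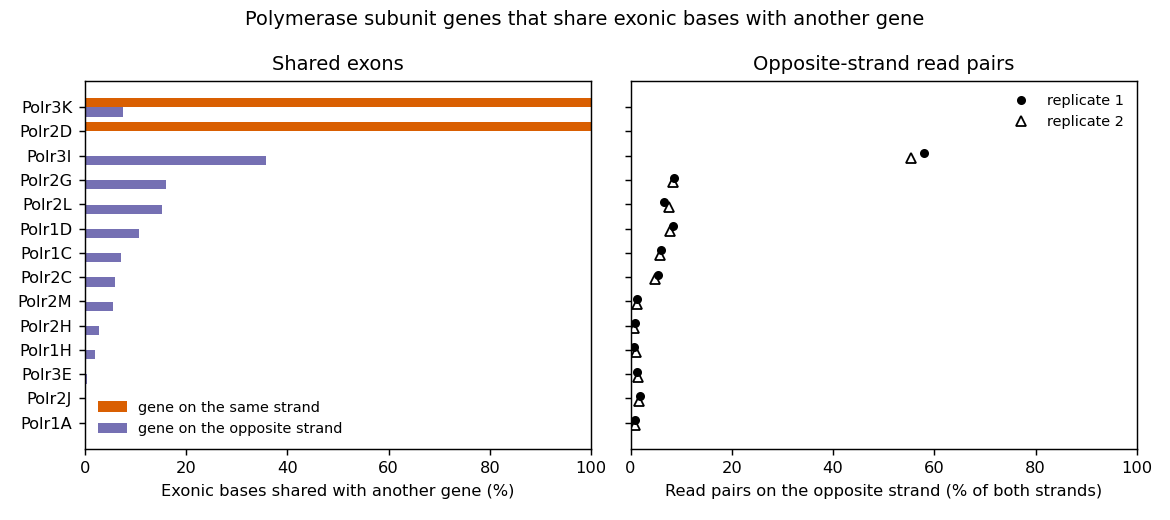
The 14 subunit genes with exonic bases shared with another gene. The left panel gives the share of exonic bases (%) in exons of a gene on the same or the opposite strand, and the right panel the share of read pairs on the opposite strand (%) in replicates 1 and 2. Polr2D and Polr3K are shared in full on the same strand and have no reads, and Polr3I has 58.0% and 55.3% opposite-strand read pairs.

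Overlaps on the opposite strand were more common and were separated by the stranded library. Exonic bases shared with another gene on either strand were found at 14 of the 30 genes, against 32.9% of annotated protein-coding genes. The largest overlap of a counted gene was at Polr3I, on the plus strand of chromosome X (16884581 to 16886612), where 499 of 1393 exonic bases lie opposite exons of DENR, which encodes a translation factor. Polr3I had 877 and 844 strand-matched counts, and 1213 and 1045 read pairs in the opposite orientation, which is 58.0% and 55.3% of both. DENR had 1413 and 1236 counts on its own strand. Polr3F, without an annotated overlap, had 13.9% and 14.3% opposite-strand read pairs. These were the only counted subunit genes over 10%, that is 2 of 28, against 14.1% of counted protein-coding genes. The median share was 1.33% over the subunits and 1.46% over protein-coding genes. Unstranded counting left Polr3I with 705 and 691 counts, since read pairs in the overlap then fell in both genes.

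The partners of the polymerases were read for comparison. Of the Pol I partners, Tif-IA, the counterpart of the yeast initiation factor Rrn3, had 257 and 258 deposited TPM, above every subunit specific to Pol I, and TAF1B had 20.6 and 20.2 TPM. With each exonic base counted once, Tif-IA had 164 ± 0.200 and TAF1B 34.9 ± 0.731 TPM (SD, n = 2). Of the 9 Pol III partners, 8 had at least 10 counts in each library. La, which binds the ends of new Pol III transcripts among other RNAs, had 777 and 764 TPM, while the initiation factors Brf and Bdp1 had 50.6 ± 0.176 and 48.0 ± 1.63 TPM (SD, n = 2), or 56.8 ± 0.0784 and 60.3 ± 1.75 TPM with each exonic base counted once (SD, n = 2). Trf, described in Drosophila as taking the place of TBP in Pol III initiation, had 41.7 ± 0.760 deposited TPM (SD, n = 2), and Maf1, a repressor of Pol III, had 27.1 ± 0.395 TPM (SD, n = 2). Their order turned with each exonic base counted once, at 26.6 ± 0.356 TPM for Trf and 33.1 ± 0.643 TPM for Maf1 (SD, n = 2). The PSE-binding proteins of snRNA promoters were lower, with 5.27 ± 0.289 TPM for Pbp45 (SD, n = 2) and 15.6 ± 0.758 for Pbp95 (SD, n = 2), and Pbp49 was at 0 and shares 100% of its exonic bases with a gene on its strand.

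Of the 12 listed Pol II elongation and CTD factors, 10 were matched by symbol, and all 10 passed the count minimum in both libraries. Their median was 55.0 deposited TPM, or 67.4 TPM with each exonic base counted once. In deposited TPM they ran from Pcf11, a transcription termination factor, at 16.3 ± 0.203 TPM (SD, n = 2) to Atu, a Paf1 complex subunit, at 127 ± 3.51 TPM (SD, n = 2). TfIIS, which rescues arrested Pol II, had 108 and 104 deposited TPM. Both ends depended on the length: with each exonic base counted once, Fcp1, a phosphatase of the Pol II CTD, was lowest at 32.1 ± 0.247 TPM (SD, n = 2) and TfIIS highest at 121 ± 3.80 TPM (SD, n = 2), while Pcf11 had 45.6 and Atu 81.0 TPM. Of the 6 listed assembly factors, 3 were matched, and pont and rept, the ATPases that act in the assembly of polymerases and other complexes, had 179 ± 0.185 and 112 ± 4.63 deposited TPM (SD, n = 2). Their order turned with each exonic base counted once, at 114 ± 0.674 TPM for pont and 210.3 ± 7.63 TPM for rept (SD, n = 2). PolrMT, the single-subunit polymerase of mitochondria, had 44.9 and 46.2 deposited TPM, or a mean of 56.7 ± 0.881 TPM with each exonic base counted once (SD, n = 2).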

How the data were processed

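RNA-seq libraries from replicates 1 and 2 of the DMSO control were analysed. The authors aligned paired-end reads to dm6 with STAR 2.7.1a and deposited raw counts per gene, from a stranded kit with poly(A) enrichment, in 3 strand columns, along with TPM, gene lengths and their mean TPM of both libraries. The counts in the table equal the second-read strand column. Rows that name no gene, 21.6% and 21.0% of read pairs, were left out of totals. In the table, 0 value columns had no sample. Symbols came from a table pairing FlyBase identifiers with symbols (17709 matched). Exons, coordinates and overlaps came from Ensembl release 115 (BDGP6.54, dm6 coordinates). TPM was recalculated with exonic lengths (each exonic base counted once) or longest-transcript lengths. A count of 0 allows up to 0.0897 CPM in replicate 1 and 0.0946 CPM in replicate 2 (3 counts), counting error only, where reads can be counted at all.

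The members and lists were chosen with earlier results of these data known. Members are named with PolrMT and listed partners by role, except 1 member that is not reported here on its own; 5 listed symbols were not matched. No test between conditions was possible. The comparison of the libraries by counting error was tried on simulated data that vary by counting error only. That simulation cannot show how the comparison behaves where libraries vary in other ways. Python 3.11.15, numpy 2.4.6, pandas 2.3.3, scipy 1.17.1, matplotlib 3.10.9 and R 4.3.3 with edgeR 4.0.16 and DESeq2 1.42.0 (library scaling only) were used. Alternatives are given in the closing section.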

Additional observations from a re-analysis of the deposited data

How the results depend on the processing

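The number of counted members was 28 at a minimum of 1 or 100 counts, with unstranded counts and with either replicate left out. The number that differed between the libraries was 3 with TMM factors or DESeq2 size factors, which dropped Polr2K, and 4 with unstranded counts or all genes with a count. The ratio of medians of Pol II over Pol I was 1.00 with exonic lengths, in which each base counts once, and 1.00 with longest-transcript lengths, and 1.12 with exonic bases counted once and genes at 0 left out, an alternative chosen after seeing the data, as was the restriction to genes sharing no exonic base. The shift from 0.702 to 1.00 follows from the shorter lengths of genes with several transcripts, since no length changed at the Pol I genes. The further step to 1.12 came from leaving out Polr2D at 0, which raised the Pol II median from 78.9 to 88.2 TPM.

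With each exonic base counted once, the medians in TPM were 78.6 for Pol I, 78.9 for Pol II, 153 for subunits common to all 3 and 53.2 for those of Pol I and III, and the ratios over Pol III were 1.78 for Pol II and 1.78 for Pol I. Leaving out genes at 0 as well gave medians of 78.6 for Pol I, 45.7 for Pol III, 153 for the common subunits and 53.2 for those of Pol I and III, with ratios over Pol III of 1.94 for Pol II and 1.73 for Pol I. With the longest transcript, the medians were 75.4 for Pol I, 75.7 for Pol II, 147 for the common subunits and 53.7 for those of Pol I and III, with ratios of 1.75 for Pol II over Pol III and 1.74 for Pol I over Pol III. Unstranded counts gave 127 for Pol I, 247 for the common subunits and 53.7 for those of Pol I and III, and 2.05 for Pol II over Pol III. In CPM, which ignores length, the medians were 57.3 for Pol I, 40.5 for Pol II, 32.8 for Pol III, 54.1 for the common subunits and 26.5 for those of Pol I and III, with 1.24 for Pol II over Pol III and 1.75 for Pol I over Pol III. Members with at least 10 counts gave 48.4 for Pol III, 1.84 for Pol II over Pol III and 2.54 for Pol I over Pol III. Without Polr2M, Pol II over Pol III was 2.08. With shared subunits counted in every enzyme that holds them, the medians were 129 for Pol I, 109 for Pol II and 73.2 for Pol III, with ratios of 0.849 for Pol II over Pol I, 1.496 for Pol II over Pol III and 1.76 for Pol I over Pol III. Genes sharing no exonic base, only 3 each for Pol I and Pol II and 7 for Pol III, gave 67.8 for Pol III, 1.24 for Pol II over Pol III and 1.82 for Pol I over Pol III. With one replicate left out, medians ranged from 122 to 124 for Pol I, 84.6 to 88.3 for Pol II, 41.6 to 44.0 for Pol III, 238 to 242 for the common subunits and 60.2 to 62.3 for those of Pol I and III, and ratios from 0.680 to 0.723 for Pol II over Pol I, 2.01 to 2.03 for Pol II over Pol III and 2.77 to 2.99 for Pol I over Pol III. The Pol III median was below those of Pol I and Pol II in all of these alternatives.

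Unstranded counts moved 16 of the 28 single genes by more than their SD. This number is not an effect of strand alone, since TPM was recalculated over all genes and some SDs were small. Polr1F, for example, had 718 and 676 stranded and 727 and 670 unstranded counts. Its mean TPM still moved from 60.1 ± 0.178 (SD, n = 2) to 61.2. No such count is given for the other lengths, which also rescale all genes together. No paired analysis was possible because the design has a single condition. With 2 libraries each SD rests on 2 values, and TPM used full gene lengths without a correction for fragment length.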
